A study of Mus musculus with 4 samples.

Results

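The BCL2 family survival and death genes were examined in double positive (DP) thymocytes, the stage of T cell development at which CD4 and CD8 are both expressed. The 10 genes Bcl2, Bcl2l1, Mcl1, Bcl2l11, Bbc3, Pmaip1, Bax, Bak1, Bid and Bad were taken by name from the deposited table of 24984 genes, and all 10 had a row. TTchem-seq was used, in which RNA made during a short exposure to 4-thiouridine (4sU) is purified and sequenced, so that the fragments counted over a gene, introns included, measure its transcriptional output. There were 2 libraries from control mice (WT), labelled Tox4;F/F, which carry floxed Tox4 alleles without Cre, and 2 libraries from knockout mice (cKO), labelled Tox4;F/F;Lck+. Cells of both genotypes rested for 0.5 h in fresh medium before 4sU was added. Exons 4 to 6 of Tox4 were floxed, and the mice were littermates aged 6 to 8 weeks on a C57BL/6 background. Cre was driven by the proximal Lck promoter, which is active from the double negative stage on. The controls carry no Cre by their label, so the presence of Cre and the loss of Tox4 cannot be told apart. The labels do not say whether each library came from its own mouse, so p-values measure the spread between these libraries.

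BCL2 family proteins set the point at which a cell loses the integrity of its outer mitochondrial membrane. The antiapoptotic proteins BCL2, BCL-XL (Bcl2l1) and MCL1 hold the effectors BAX and BAK (Bak1) in check. BH3-only proteins such as BIM (Bcl2l11), PUMA (Bbc3), NOXA (Pmaip1), BID and BAD oppose the antiapoptotic proteins, and some of them also activate the effectors directly. Pores of BAX and BAK release cytochrome c, which assembles with APAF1 into the apoptosome and activates caspases. DP thymocytes are known for high BCL-XL, which sustains them while Tcra is rearranged, and for low BCL2, which increases again in the cells that are positively selected. BIM is the BH3-only protein best known for the death of autoreactive thymocytes.

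The DNA just before the start of a gene is where its transcription is set up, and it is shown here for the single member called changed and for the 3 members with the highest output. Each line gives the 250 bases that end at the base before the start used by most deposited transcripts of the gene, 5′ to 3′ on the gene's strand, from RefSeq (GRCm38.p6). Capitals mark the letters AACNG on either strand, the core bound by MYB, the product of one of the regulator genes described further on.
Bcl2, chr1:106714291-106714540, strand -: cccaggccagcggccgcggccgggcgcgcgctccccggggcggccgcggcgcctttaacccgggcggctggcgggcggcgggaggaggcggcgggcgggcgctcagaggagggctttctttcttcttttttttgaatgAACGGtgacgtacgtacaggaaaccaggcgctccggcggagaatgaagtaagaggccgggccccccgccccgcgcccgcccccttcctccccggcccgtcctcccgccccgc
Bcl2l1, chr2:152830718-152830967, strand -: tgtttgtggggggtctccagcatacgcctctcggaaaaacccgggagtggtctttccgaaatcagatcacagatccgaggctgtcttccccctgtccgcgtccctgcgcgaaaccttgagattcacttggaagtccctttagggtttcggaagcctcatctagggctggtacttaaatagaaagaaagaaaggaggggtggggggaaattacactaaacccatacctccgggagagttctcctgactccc
Mcl1, chr3:95658471-95658720, strand +: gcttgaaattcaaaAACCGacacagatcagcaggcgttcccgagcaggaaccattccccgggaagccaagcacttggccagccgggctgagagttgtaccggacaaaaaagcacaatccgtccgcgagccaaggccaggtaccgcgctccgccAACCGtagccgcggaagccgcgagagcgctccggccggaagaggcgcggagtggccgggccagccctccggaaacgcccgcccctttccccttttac
Bcl2l11, chr2:128125788-128126037, strand +: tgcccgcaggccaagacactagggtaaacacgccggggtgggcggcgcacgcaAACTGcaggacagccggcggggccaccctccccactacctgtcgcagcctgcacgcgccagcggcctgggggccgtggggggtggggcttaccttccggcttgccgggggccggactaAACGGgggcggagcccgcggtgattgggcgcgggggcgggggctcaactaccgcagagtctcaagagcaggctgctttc
The Bcl2 stretch held 1 such match, Mcl1 and Bcl2l11 held 2 each, and Bcl2l1 held 0. Windows of 250 bases before to 50 bases after the start were searched for 9 members, and Pmaip1 was not searched. The MYB core lay in 5 of these 9 windows (Bcl2, Mcl1, Bcl2l11, Bax and Bak1) and in 80.3% of all 32851 windows. The TCF core CTTTG lay in 3 of 9 (Bid, Bax and Bak1) and in 53.9% of all windows. The glucocorticoid receptor motif AGAACA lay in 0 of 9 and in 19% of all windows. The letters AAC occur in both AACNG and AGAACA, so matches of these can overlap. The 3 motifs were picked after the values of the genes Myb, Tcf7 and Nr3c1 had been seen. The G and C content of the Bcl2 window was 76%, that of Bcl2l11 was 71%, that of Mcl1 was 65.7% and that of Bcl2l1 was 55.7%, against a median of 52.7% over all windows.

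The libraries held between 38429786 and 48690591 fragments. Tox4 itself had 74.0 and 70.3 CPM (fragments scaled to the library total) in WT and 59.3 and 57.2 CPM in cKO, which gave -0.31 on the log2 scale (SE 0.0998, DESeq2 adjusted p = 0.0453). It missed the threshold with edgeR (adjusted p = 0.153), with limma voom (0.143) and with any library left out. Its counted interval spans the whole gene, of which the floxed exons are a part. The library of WT replicate 1 stood apart from the other 3 in transcripts tied to sex, with Xist at 172 CPM against at most 2.36 CPM, and Ddx3y at 0.164 CPM against at least 54.0 CPM. This goes against the study's statement that littermates were matched by gender, and it leaves sex unbalanced between the genotypes. All 13 DP identity markers were measured, and 2 of them were called decreased, Cd8a (log2 fold change -0.54, DESeq2 adjusted p = 1.21e-05, and 0.108 with edgeR) and Rag1 (-0.31, adjusted p = 0.0499, which was above the threshold in 13 of 15 other settings). With WT replicate 1 left out, Cd8a was at -0.71 and Rag1 at -0.49, and with WT replicate 2 left out they were at -0.35 and -0.12. Of 6 B cell markers 4 had a mean of at least 1 CPM and 0 were called, and the list summed to between 18.1 and 25.9 CPM. Myeloid markers summed to between 10.8 and 13.7 CPM and erythroid markers to at most 0.729 CPM. Of the stroma markers, Psmb11 was at 0 and Pecam1, which thymocytes express too, made up nearly all of the sum.

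Output differed widely among the 10 genes, and all of them reached a mean of at least 1 CPM. The genes differ in length, so levels are compared as CPM per kb of counted interval. In WT cells Mcl1 was at 22.9 ± 1.32 CPM per kb (SD, n = 2) and Bcl2l1 at 20.1 ± 0.281, and by their mean over all 4 libraries they were higher than 97.8% and 97.4% of the 11625 genes with a mean of at least 1 CPM. Bcl2l11 followed with 7.67 ± 0.304 CPM per kb, and by its mean over all libraries was higher than 92.7% of genes. Bcl2l11 thus had the highest output of the BH3-only members. Bbc3 was at 4.10 ± 0.372, Bak1 at 3.64 ± 0.000777, Bax at 2.77 ± 0.0795 and Bad at 1.80 ± 0.215 CPM per kb. The lowest were Bcl2 at 0.577 ± 0.00110, Bid at 0.577 ± 0.105 and Pmaip1 at 0.391 ± 0.0389 CPM per kb. Per kb, Bcl2l1 exceeded Bcl2 by 34.6 and 35.2 times in the WT libraries. Without scaling by length, Bcl2 (102 ± 0.193 CPM) and Mcl1 (102 ± 5.89 CPM) were alike in WT, so this order depends on that scaling. The order of the 10 genes was the same in cKO cells. Neighbours in this order did not overlap between libraries except Bcl2 and Bid in WT, where the 2 values of Bcl2 lay between those of Bid.

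**Figure D1:**
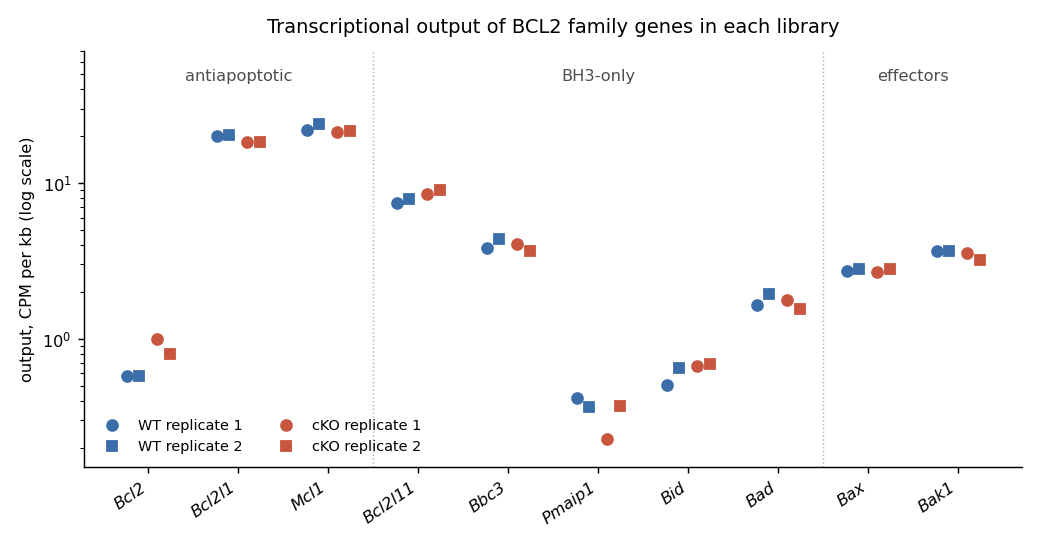
Output of each BCL2 family gene in CPM per kb of counted interval, on a log scale, with 1 point per library (blue, WT; red, cKO; circles, replicate 1; squares, replicate 2). Mcl1 and Bcl2l1 lie near 20 CPM per kb and Bcl2 lies below 1, and Bcl2 is the gene whose cKO points stand farthest above its WT points.

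Of the 10 genes, 1 was called increased and 0 decreased in cKO cells by the DESeq2 Wald test, with the thresholds set at 1.2-fold, an adjusted p of 0.05 and a mean level of 1 CPM. Among all 11625 genes at this level, 2.14% were called increased and 1.57% decreased, 3.71% in either direction. With edgeR 0 of the 10 were called, against 0.413% of all genes increased and 0.086% decreased. At an unadjusted p under 0.05, 3 of the 10 passed with either tool (Bcl2, Bcl2l1 and Bcl2l11), beside 13.5% of all genes with DESeq2 and 15.6% with edgeR. The members had a median log2 fold change of -0.10, beside 0.000876 for all genes. Leaving out a library turned its sign in 1 case (0.012 without WT replicate 2) and gave -0.04 without cKO replicate 2, -0.07 without cKO replicate 1 and -0.14 without WT replicate 1. The libraries of both genotypes did not overlap for 6 of the 10, 3 with both cKO values higher (Bcl2, Bcl2l11 and Bid) and 3 with both lower (Bcl2l1, Mcl1 and Bak1). Of all genes, 48.9% did not overlap, 24.9% with cKO higher and 24% with cKO lower.

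Bcl2 was the member called increased. Its output was 101.5 and 101.8 CPM in WT and 175.8 and 141.3 CPM in cKO. The WT libraries were nearly equal, the cKO libraries differed from each other, and both cKO values lay above both WT values. The means were 102 ± 0.193 CPM in WT and 159 ± 24.4 CPM in cKO (SD, n = 2 each), on 4328 to 6756 fragments per library. The log2 fold change was 0.64 (SE 0.105, 95% interval 0.43 to 0.84), that is 1.56-fold, with a DESeq2 adjusted p of 4.01e-07. The same change missed the threshold with edgeR (adjusted p = 0.0632) and with limma voom (adjusted p = 0.0602). Without cKO replicate 1 it was 0.48 (DESeq2 adjusted p = 0.0336), and without WT replicate 1 it was 0.63 (DESeq2 adjusted p = 7.11e-04). In these fits and all others with a library left out, the lone library was assumed to vary like the pair of the other genotype, so their p-values hold no replicate information for its group. In bulk cells, a different share of cells that transcribe a gene cannot be told apart from a different amount of RNA per cell. Even after this change, Bcl2 stood at 0.900 CPM per kb in cKO cells, and Bcl2l1 exceeded it by 18.3 and 22.7 times.

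**Figure D2:**
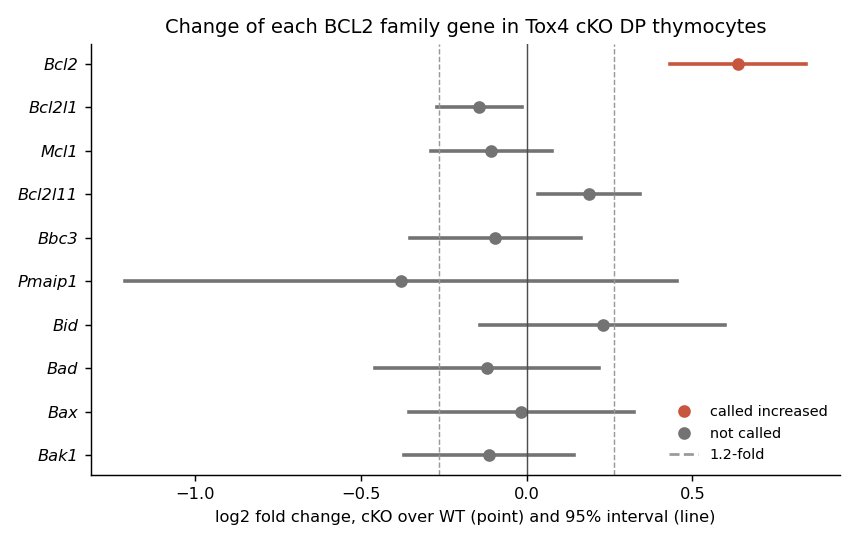
The log2 fold change of each member in cKO over WT cells from DESeq2 (points) with its 95% interval (lines), and dashed lines at a fold change of 1.2. Bcl2 at 0.64 is the single gene called, and Pmaip1 has the widest interval, from -1.21 to 0.45.

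Bcl2 is the longest of the 10 genes (chr1:106538176-106714290, strand -, mm10, 176115 bp), and nearly all of its counted interval is intron. Genes called increased in these libraries were long, with a median of 71 kb beside 22.65 kb for all genes tested. Of the 1064 tested genes of 100 to 250 kb, a class chosen after the values were seen, 6.3% were called increased and 2.26% decreased. With the trend on gene length removed in each library, the log2 fold change of Bcl2 was 0.58 (DESeq2 adjusted p = 1.31e-05). The expressed genes within 1 Mb of Bcl2, also chosen after the values were seen, were Pign, Relch, Gm7160, Zcchc2, Phlpp1, Kdsr and Vps4b. One of these was called, Phlpp1, which encodes a phosphatase that acts on AKT. Phlpp1 was at 105 and 115 CPM in WT and at 146 and 136 CPM in cKO, which gave 0.35 on the log2 scale (SE 0.0908, DESeq2 adjusted p = 0.00499), and it missed the threshold without WT replicate 1 (0.28, adjusted p = 0.330) or without either cKO library (adjusted p = 0.542 and 0.232). Kdsr, the nearest of them, had a log2 fold change of 0.03 (SE 0.0924). The part of gene length in the change of Bcl2 was not tested beyond these values.

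**Figure D3:**
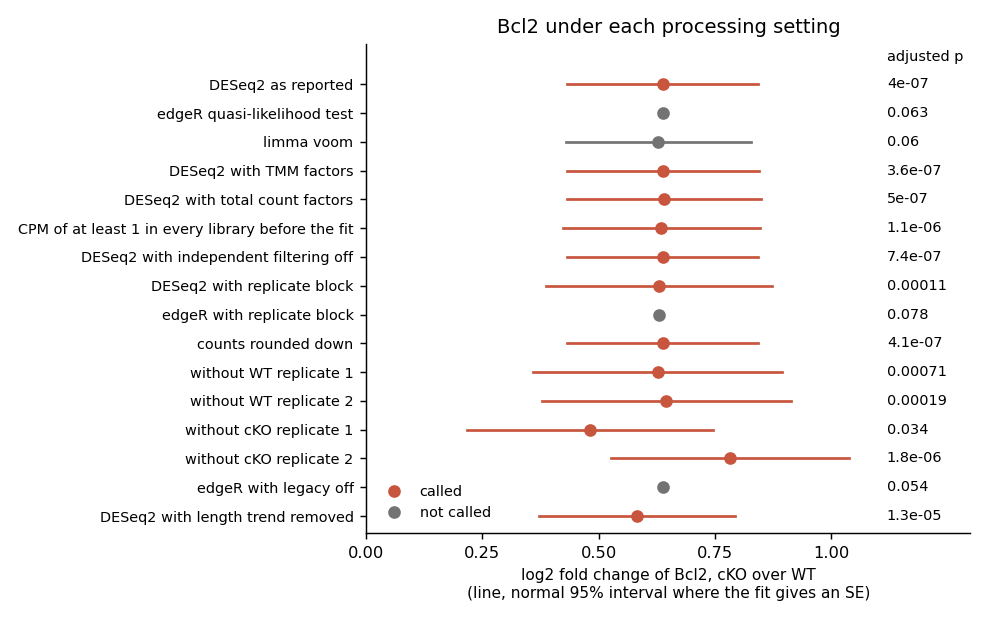
The log2 fold change of Bcl2 in cKO over WT cells under the reported fit and 15 other settings, with the normal 95% interval as lines where the fit gives an SE and the adjusted p beside each. The estimate ranges from 0.48 to 0.78, and 4 settings, all of edgeR or limma voom, lose the call.

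Because BCL2 increases as thymocytes mature and the study's methods describe, for other assays, isolating DP cells with a CD4 bead kit, markers of mature single positive cells were read beside Bcl2. Of 11 such markers 10 were measured, 2 had a log2 fold change above 0 and 8 below 0, 2 were called increased and 1 decreased, and their median log2 fold change was -0.30 (-0.24 without WT replicate 1). The summed level of the list was 560 and 545 CPM in WT and 539 and 468 CPM in cKO, and whether these ranges overlap depends on which markers are listed. The increased ones were Il7r, the interleukin 7 receptor (log2 fold change 0.36, DESeq2 adjusted p = 0.0125), and Runx3, a regulator of the CD8 lineage (0.42, adjusted p = 0.00472). Ccr7, the chemokine receptor that guides positively selected cells to the medulla, was decreased (-0.34, DESeq2 adjusted p = 0.00714). Without WT replicate 1 their sizes stayed close (0.35 for Il7r, 0.40 for Runx3 and -0.32 for Ccr7), and all 3 missed the threshold (DESeq2 adjusted p from 0.213 to 0.270). The calls of Il7r and Runx3 were lost without any one library, at sizes of 0.30 to 0.42 and of 0.40 to 0.43, and that of Ccr7 also without cKO replicate 2 (-0.23, DESeq2 adjusted p = 0.758). The early T lineage list had 6 of 8 markers measured and 1 increased, Notch1 (0.47, DESeq2 adjusted p = 3.59e-06, and 0.0510 with edgeR), and summed to 230 and 241 CPM in WT and 298 and 309 CPM in cKO. The median of that list was 0.20, and it was -0.08 without WT replicate 1. The part of other maturation stages in the change of Bcl2 was not tested.

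**Figure D4:**
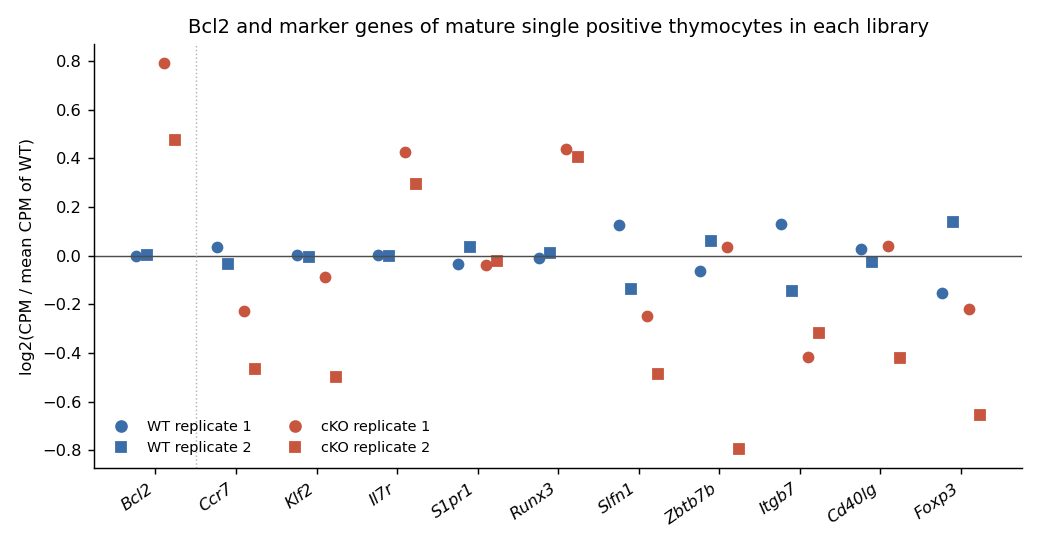
CPM of Bcl2 and of the 10 measured markers of mature single positive thymocytes in each library, as log2 of the value over the WT mean of the gene (colours and symbols as for the levels). Il7r and Runx3 lie above WT in both cKO libraries as Bcl2 does, and the other 8 markers, Ccr7 among them, have a log2 fold change below 0.

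The other antiapoptotic members were not called. Bcl2l1 (chr2:152758732-152831728, strand -, mm10), the main survival gene of DP cells, was at 1455 and 1484 CPM in WT and at 1336 and 1332 CPM in cKO. Both cKO values were lower, and the libraries within each genotype were close to each other. Its log2 fold change was -0.14 (SE 0.0659, 95% interval -0.27 to -0.01, DESeq2 adjusted p = 0.276), on 51347 to 72267 fragments per library. An opposite-strand neighbour, Cox4i2, overlaps 8.64% of Bcl2l1 and had at most 6 fragments. Mcl1 (chr3:95658721-95663178, strand +), whose protein is short-lived and needed throughout thymocyte development, was at 97.7 and 106 CPM in WT and at 94.1 and 95.6 CPM in cKO. Both cKO values lay just below both WT values, and the log2 fold change was -0.11 (95% interval -0.29 to 0.08, DESeq2 adjusted p = 0.707), with -0.17 when WT replicate 1 was left out and -0.04 when WT replicate 2 was. The intervals of Bcl2l1 and Mcl1 leave out an increase as large as 1.2-fold. They reach down to 0.828-fold and 0.819-fold, so they do not leave out a decrease of that size.

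None of the 5 BH3-only members was called. Bcl2l11 (chr2:128126038-128162547, strand +) was at 272 and 288 CPM in WT and at 311 and 329 CPM in cKO, so both cKO values were higher. Its log2 fold change was 0.19 (SE 0.0785, 95% interval 0.04 to 0.34, DESeq2 adjusted p = 0.187), and it was 0.14 without WT replicate 1. The interval of Bcl2l11 ends at 1.27-fold. Bid (chr6:120893119-120916824, strand -), whose protein is cleaved by caspase 8 and links death receptors to mitochondria, was at 11.9 and 15.4 CPM in WT and at 15.9 and 16.3 CPM in cKO. Both cKO values of Bid were higher, with a change of 0.23 on the log2 scale (SE 0.188, DESeq2 adjusted p = 0.673) that was 0.05 when WT replicate 1 was left out and 0.44 when WT replicate 2 was. Bbc3 (chr7:16309583-16318334, strand +), a p53 target that also acts in glucocorticoid-induced thymocyte death, was at 33.6 and 38.2 CPM in WT and at 35.5 and 31.9 CPM in cKO. Its values overlapped between genotypes, with a log2 fold change of -0.09 (95% interval -0.35 to 0.16, DESeq2 adjusted p = 0.843).

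Bad (chr19:6941861-6951905, strand +), whose protein is held inactive by phosphorylation, was at 16.5 and 19.6 CPM in WT and at 17.7 and 15.6 CPM in cKO. The groups overlapped, and the log2 fold change was -0.12 (SE 0.172, DESeq2 adjusted p = 0.849). Pmaip1, whose protein binds MCL1, had the fewest fragments, between 61 and 124 per library. It was at 2.91 and 2.53 CPM in WT and at 1.59 and 2.59 CPM in cKO, so the cKO libraries lay on either side of a WT library. The log2 fold change of Pmaip1 was -0.38 (SE 0.424, DESeq2 adjusted p = 0.791), with -0.06 without cKO replicate 1 and -0.78 without cKO replicate 2. Its 95% interval from -1.21 to 0.45 takes in a change of 1.2-fold either way.

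Neither effector was called. Bax (chr7:45461695-45466898, strand -) was at 14.1 and 14.7 CPM in WT and at 14.0 and 14.6 CPM in cKO. These values interleave, with a log2 fold change of -0.02 (95% interval -0.36 to 0.32, DESeq2 adjusted p = 0.987). The interval of Bax takes in a change of 1.2-fold either way. Bak1 (chr17:27019812-27028627, strand -) was at 32.07 and 32.06 CPM in WT and at 31.4 and 28.0 CPM in cKO. Both cKO values of Bak1 were lower, one of them by little, and the log2 fold change was -0.11 (95% interval -0.37 to 0.14, DESeq2 adjusted p = 0.803), with -0.19 without cKO replicate 1 and -0.04 without cKO replicate 2. All of Bak1 lies within Ggnbp1 on the opposite strand, which had 21 to 38 fragments.

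Relations between members can be read within a library, where scaling cancels. The summed output of the 3 antiapoptotic members over that of the 5 BH3-only members, per kb, was 1.61 and 1.55 on the log2 scale in WT and 1.41 in both cKO libraries. The ratio was lower in cKO by 0.18 on average and did not overlap between genotypes, beside 48.9% of all single genes that did not overlap. The highest levels in these sums are those of Mcl1, Bcl2l1 and Bcl2l11, none of which was called. Bcl2l1 exceeded Bcl2l11 per kb by 2.67 and 2.58 times in WT and by 2.15 and 2.02 times in cKO, again with no overlap. In contrast, Bcl2 made up 1.36% and 1.29% of the antiapoptotic output per kb in WT and 2.47% and 1.98% in cKO. No test was run on these ratios, and the smallest two-sided exact permutation p that 2 libraries against 2 allow is 0.333. They compare RNA output, not protein.

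Of 74 other genes of the death pathway and its regulators, 65 had a mean of at least 1 CPM, 3 were called increased and 2 decreased, and their median log2 fold change was 0.04 (0.0077 without WT replicate 1). These counts stand beside the 2.14% and 1.57% of all genes called in each direction. Of 15 other BCL2 family genes 7 were measured and 0 called, and Bok and Hrk were at 0 in all libraries. The most transcribed per kb of these was Bnip3l, a mitophagy receptor (log2 fold change -0.12, DESeq2 adjusted p = 0.585, and -0.07 without WT replicate 1). Bnip3, its relative, had the largest change among them, with 6.45 and 3.98 CPM in WT and 2.37 and 3.40 CPM in cKO (log2 fold change -0.86, SE 0.358, DESeq2 adjusted p = 0.194), and -0.48 without WT replicate 1. Downstream of the mitochondria, all 15 apoptosome and caspase genes were measured and 0 called, with a median of 0.04. Casp2 had a log2 fold change of 0.03 and Endog, with at most 2.88 CPM, of -0.66 (SE 0.451; -0.41 without WT replicate 2). Of 14 mitochondrial and turnover partners, 0 were called, with Pim1 at -0.12 and Dynll1, which tethers BIM to the dynein motor, at -0.24 (DESeq2 adjusted p = 0.676 and 0.590).

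**Figure D5:**
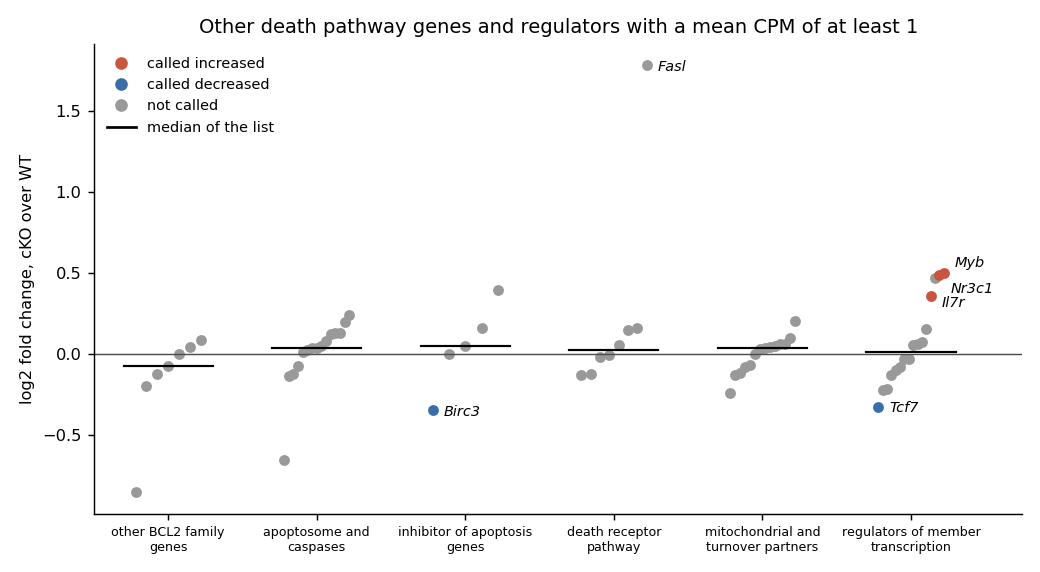
The log2 fold change in cKO over WT cells of the 65 other death pathway genes and regulators with a mean of at least 1 CPM, by list, with the median of each list as a bar (red, called increased; blue, called decreased; grey, not called). The medians lie between -0.07 and 0.05, and the called genes are Birc3, Tcf7, Myb, Nr3c1 and Il7r.

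Of the 5 inhibitor of apoptosis genes 1 was called, Birc3, which encodes the ubiquitin ligase cIAP2. Birc3 was at 148 and 140 CPM in WT and at 119 and 108 CPM in cKO, both lower. Its log2 fold change was -0.35 (SE 0.0887, DESeq2 adjusted p = 0.00458), and without WT replicate 1 it was -0.32 with an adjusted p of 0.225. The call of Birc3 was lost without either cKO library too (DESeq2 adjusted p = 0.121 and 0.646). Birc2, its paralogue, had a log2 fold change of -0.0017. Birc5 (survivin) was at 7.96 CPM in WT replicate 1 and between 14.9 and 16.4 CPM in the other 3 libraries, so its log2 fold change of 0.39 was -0.02 without that library. None of the 8 death receptor genes was called, and Tnfrsf1a was at -0.12 (-0.25 without cKO replicate 1 and -0.0048 without cKO replicate 2). Fasl, the ligand of FAS, was at 19.5 and 13.4 CPM in WT and at 108 and 5.58 CPM in cKO. The cKO libraries lay on opposite sides of WT, and the log2 fold change of 1.78 had an SE of 1.61 (DESeq2 adjusted p = 0.722). A single cKO library set its sign, since the change was -1.55 when cKO replicate 1 was left out and 2.71 when cKO replicate 2 was.

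Of 17 regulators known to act on transcription of these genes, 16 were measured, 3 were called increased and 1 decreased, beside 2.14% and 1.57% of all genes. Myb, a transcription factor needed for survival of DP cells, was at 579 and 584 CPM in WT and at 807 and 844 CPM in cKO. Its log2 fold change was 0.50 (SE 0.0698), with an adjusted p of 3.91e-10 from DESeq2 and of 0.0322 from edgeR. Nr3c1, the glucocorticoid receptor gene, whose product drives thymocyte death in part through BIM and PUMA, was at 415 and 420 CPM in WT and at 582 and 589 CPM in cKO. Its log2 fold change was 0.49 (SE 0.0694), with an adjusted p of 1.45e-09 from DESeq2 and of 0.0322 from edgeR. For both, the cKO libraries were close to each other and above WT, and without WT replicate 1 the changes were 0.49 for Myb and 0.47 for Nr3c1. Il7r, whose signal raises BCL2 in T cells, was at 62.0 and 61.7 CPM in WT and at 83.1 and 75.8 CPM in cKO. Tcf7, which encodes TCF-1, a factor that sustains Bcl2l1 in DP cells, was at 4019 and 4236 CPM in WT and at 3679 and 2919 CPM in cKO (log2 fold change -0.33, DESeq2 adjusted p = 0.0174). The call of Tcf7 was lost without cKO replicate 2, where the change was -0.17 (DESeq2 adjusted p = 0.910), and without either WT library. Ets1 was at 0.16 (DESeq2 adjusted p = 0.213) and the cell cycle factor gene E2f1 at 0.47 (0.24 without WT replicate 1; DESeq2 adjusted p = 0.196 with it).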

How the data were processed

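TTchem-seq libraries from 2 WT and 2 cKO samples of DP thymocytes were grouped by their sample titles. The submitters' processing notes name fastp 0.13.1, STAR 2.7.9a, featureCounts 1.6.1 and mm10, whereas the methods take the counts of this assay from STAR output, so which tool counted is not settled. The authors did not scale by the added yeast RNA. The labels describe polyA capture, whereas the methods state rRNA depletion for this assay. The deposited table held expected counts of fragments over whole gene intervals, introns included, and 8.61% of the values were fractional, among the members only 1 value of Bcl2l11. How fractions were assigned is not given in the sources used here.

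Counts were rounded and tested across all genes with DESeq2 1.42.0 (default size factors, unshrunken fold changes, no covariate), following the study's methods. Alternatives were edgeR 4.0.16 (quasi-likelihood) and limma 3.58.1 (voom), other scaling and filters, a replicate block and leaving out each library. The newer dispersion estimate of edgeR (legacy off) and the removal of a length trend were chosen after seeing the data. R 4.3.3, Python 3.11.15, pandas 2.3.3, numpy 2.4.6 and matplotlib 3.10.9 were used. Scripts were tested on simulated data. Replicates differed by more than counting noise (chi-square per degree of freedom 40.7 in WT and 30.7 in cKO). No molecular identifiers were described.

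The members, the gene lists and the rule for named genes were chosen with earlier results of these data known. The rule took every member, and from each wider list the called genes, the gene not called with the highest CPM per kb and the one with the largest change. Deviations of samples with the same replicate number correlated at -0.03, so the numbers were not taken to pair the samples, although the share of Rn45s was lower in replicate 1 (2.71% in WT and 2.44% in cKO) than in replicate 2 (4.30% and 4.05%). Promoter windows on chromosome 18 were left out, and protein sequences were not used here. A marker gene of mature cells and one of B cells are not reported here and were left out of their lists.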

Additional observations from a re-analysis of the deposited data

How the results depend on the processing

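Bcl2 kept its direction in all 15 alternatives and its call in 11. It missed the threshold, at a log2 fold change of 0.64 with edgeR (adjusted p = 0.0632) and with edgeR legacy off (0.0544), and of 0.63 with edgeR and a replicate block (0.0783) and with limma voom (0.0602), so that 0 of the 10 members were increased in these 4. With DESeq2 and a replicate block, the change of Bcl2 was 0.63 (adjusted p = 1.14e-04). Leaving out a library gave 0.48 to 0.78. The other 9 members were not called in any of the 15 alternatives. Of the 135 estimates that these alternatives gave for the 9 genes, 5 turned sign. They were Bad (0.015), Bbc3 (0.0089) and Bax (0.021) without WT replicate 2, and Bax without cKO replicate 1 (0.022) and with the length trend removed (0.0048). With the length trend removed, Bcl2l1 was at -0.20 with an adjusted p of 0.0499, short of the fold criterion. With a library left out, Bad ranged from -0.24 to 0.015, Bbc3 from -0.19 to 0.0089 and Bax from -0.053 to 0.022. The median of the members lay between -0.14 and 0.012 with a library left out, the latter without WT replicate 2. The antiapoptotic to BH3-only difference was -0.18 per kb and -0.23 by summed CPM.

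Over all genes, 249 were increased and 182 decreased. The counts were 121 and 72 with the replicate block, 48 and 10 with edgeR, 55 and 12 with legacy off, 19 and 9 with edgeR and the block, 50 and 11 with limma voom, and 106 and 44 at a fold change of 1.5. They ranged from 61 to 320 increased and from 28 to 126 decreased with a library left out (61 and 28 without cKO replicate 2, 78 and 48 without cKO replicate 1, 113 and 71 without WT replicate 1). Tox4 stayed at -0.31 but missed the threshold with independent filtering off (adjusted p = 0.0821), total count scaling (0.0511), the replicate block (0.361), edgeR (0.153), legacy off (0.143), edgeR and the block (0.232) and limma voom (0.143), and also with any library left out (-0.34 to -0.28, adjusted p from 0.196 to 0.792). Of the other named genes, Birc2 turned sign with total count scaling (0.0010), without cKO replicate 1 (0.030) and without WT replicate 2 (0.0064), Casp2 without cKO replicate 2 (-0.053) and without WT replicate 1 (-0.054), Birc5 without WT replicate 1 (-0.018) and Fasl without cKO replicate 1 (-1.55). With a library left out, Birc2 ranged from -0.030 to 0.030, Casp2 from -0.054 to 0.11, Pim1 from -0.22 to -0.0099, Birc5 from -0.018 to 0.97 and Fasl from -1.55 to 2.71. Birc5 passed the threshold as increased without WT replicate 2, and Fasl as decreased without cKO replicate 1 and as increased without cKO replicate 2, each in a fit with a lone library in a genotype. The calls of Birc3, Il7r, Tcf7, Phlpp1, Runx3 and Ccr7 were lost with the block, edgeR and limma voom. That of Cd8a was lost with edgeR (adjusted p = 0.108), legacy off (0.0873), edgeR and the block (0.134) and limma voom (0.0998). That of Notch1 was lost with edgeR (adjusted p = 0.0510), with edgeR and the block (0.0792) and without cKO replicate 2 (a change of 0.44). Those of Myb and Nr3c1 were lost with edgeR and the block alone (adjusted p = 0.0533 for both). The causes were not tested. With 2 libraries per genotype and 61 to 124 fragments, Pmaip1 is the member least resolved.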
